A study of Mus musculus with 14 samples.

Results

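The GIMAP genes (GTPases of the immunity-associated protein family) were followed across 14 expression arrays of sorted mouse Treg cells. These regulatory CD4+ T cells depend on the transcription factor Foxp3 and hold other T cells in check. The members were taken by name: Gimap1, Gimap3, Gimap4, Gimap5, Gimap6, Gimap7, Gimap8 and Gimap9, which are 8 of the 18193 genes that a probe set with 1 gene symbol names on the array. They are read by 11 probe sets, since Gimap4, Gimap6 and Gimap7 have 2 each, and all 11 passed the filter on low signal. GIMAP proteins bind and hydrolyse GTP, sit on intracellular membranes such as those of mitochondria, endoplasmic reticulum and lysosomes, and are found mostly in lymphocytes. Several are known to set how long mature T cells survive: loss of Gimap5 in rats and mice empties the peripheral T cell pool, and Gimap1 is needed to keep mature lymphocytes. Members of the family have been found to bind proteins of the Bcl2 family, and Gimap6 binds a protein of the autophagy machinery.

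The cells came from Foxp3-ires-GFP knock-in mice on the 129/SvJ background (H-2b), and every group shares that allele, in which the Foxp3 locus also makes the green fluorescent protein used for sorting. The naive samples (replicates 1 to 6) were taken from resting spleens. The 3 GVHD-activated samples, from graft-versus-host disease, came from spleens of BALB/c recipients (H-2d) given a lethal dose of 900 cGy, on day 4 after transfer of 2000000 CD4+ and CD8+ knock-in T cells, purified with MACS, and 2000000 wild-type 129/SvJ marrow cells. Host cells that outlive irradiation share such a spleen, and the labels name no sort for Foxp3 before the transfer. The 5 tumor-activated samples came from ascites of knock-in mice 5 days after 1000000 P815 cells, a mastocytoma line from DBA/2 mice (H-2d), were injected intraperitoneally. The labels give a sort purity above 95% for all groups but naive replicates 1 to 3, whose protocol speaks of another tumor model beside resting spleens, and they give no age or sex. The submitters assigned naive replicates 1 to 3 as controls of the GVHD samples and naive replicates 4 to 6 as controls of the tumor samples. The titles speak of biological replicates but not of separate animals, and a p-value here measures only how these samples spread.

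All 8 genes matched the RefSeq promoter table (build GRCm38.p6), with 9 entries, since Gimap8 has 2 overlapping ones. On chromosome 6 the 8 genes form an unbroken row. The 250 bases before the start were searched on both strands for GGAAGT (the core bound by ETS factors), TGTGGT (RUNX) and GTAAACA (FOXO), motifs of factors that act in T cells. Shown are the genes that hold RUNX or ETS letters and whose GVHD arrays lay wholly above their controls (Gimap4 and, on 1 of its probe sets, Gimap7) or below them (Gimap1 and Gimap6). Gimap3 and Gimap8, whose GVHD arrays also lay below, hold neither. Capitals mark RUNX and ETS core letters, read on either strand, and in these windows none of the matches overlapped another. The windows are chr6:48684328-48684577 (+ strand), chr6:48718371-48718620 (+ strand), chr6:48738797-48739046 (+ strand) and chr6:48708245-48708494 (- strand), each written 5′ to 3′ on the gene's own strand.
Gimap4: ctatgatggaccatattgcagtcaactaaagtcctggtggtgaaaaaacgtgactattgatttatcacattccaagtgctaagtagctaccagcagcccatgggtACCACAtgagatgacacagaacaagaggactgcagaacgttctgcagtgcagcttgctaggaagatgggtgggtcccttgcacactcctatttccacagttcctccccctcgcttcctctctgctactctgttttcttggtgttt
Gimap7: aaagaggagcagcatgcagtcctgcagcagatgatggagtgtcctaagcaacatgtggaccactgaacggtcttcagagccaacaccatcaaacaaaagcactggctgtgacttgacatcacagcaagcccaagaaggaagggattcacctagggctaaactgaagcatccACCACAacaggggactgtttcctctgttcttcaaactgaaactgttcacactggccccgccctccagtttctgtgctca
Gimap1: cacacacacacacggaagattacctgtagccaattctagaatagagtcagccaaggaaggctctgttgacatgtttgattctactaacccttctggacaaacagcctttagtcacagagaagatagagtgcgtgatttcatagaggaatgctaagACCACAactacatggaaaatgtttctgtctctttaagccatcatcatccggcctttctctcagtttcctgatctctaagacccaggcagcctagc
Gimap6: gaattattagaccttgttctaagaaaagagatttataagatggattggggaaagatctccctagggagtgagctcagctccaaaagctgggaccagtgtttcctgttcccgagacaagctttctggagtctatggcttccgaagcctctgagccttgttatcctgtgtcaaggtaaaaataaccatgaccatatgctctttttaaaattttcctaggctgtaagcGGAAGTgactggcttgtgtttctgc

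The RUNX letters stood once each before Gimap4, Gimap7 and Gimap1, starting 145, 79 and 95 bases before the start. The ETS core stood once before Gimap6, 25 bases before the start, and 2 times before Gimap5. Of all 32851 promoter entries, 4614 held the RUNX letters and 6485 (19.7%) the ETS core in a window of this length. The FOXO letters, held by 1040 entries (3.2%), stood before Gimap3 alone among the members. The members that share the RUNX letters included 1 that was lower and others that were higher on the GVHD arrays, and a match is a description of letters only.

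Signals below are probe set intensities brought to a common 2% trimmed mean of 500, because the GVHD arrays had been deposited at 1500 and the others at 500. Scale and number format thus separate the GVHD arrays from their own controls, so for them batch and group cannot be told apart. T cell receptor and lineage genes (16 on the array, all past the filter) summed to between 145173 and 168137 on naive replicates 1 to 3, 88911 to 130528 on naive replicates 4 to 6 and 170760 to 193649 on the GVHD arrays. On the tumor arrays the sum was 59661, 83573, 11608, 33680 and 33158, so tumor replicate 3 stood far below the other arrays. There Cd3e, a chain of the T cell receptor complex, read 39.5 and Cd4 read 21.6, against 573 to 1261 and 687 to 1298 on the other tumor arrays. Summed macrophage and monocyte markers ran from 62654 to 125426 on the tumor arrays, highest on replicate 3, against 958 to 11436 on the other 9 arrays, highest on naive replicate 6. Mast cell and mastocytoma markers ran from 62153 to 120915 on the tumor arrays and from 633 to 6873 elsewhere. Of these lists, 15 of 16 macrophage and 9 of 11 mast cell markers rose in the tumor comparison, where 14.1% of all probe sets rose. Cpa3, a mast cell protease, read 9755 to 22942 on the tumor arrays against 15.2 to 711 on naive ones. The only Foxp3 probe set did not pass the filter, with a signal between 8.98 and 108 on all arrays, whereas Il2ra, the high-affinity chain of the interleukin-2 receptor that Treg cells carry, reached 2779 to 4674 on naive, 13500 to 14193 on GVHD and 460 to 10913 on tumor arrays. For Gapdh, signal at the 3′ end over that at the 5′ end, a measure of RNA integrity, was 2.19 to 5.11 on 10 arrays, and 19.09, 9.0 and 7.45 on naive replicates 4 to 6 and 19.93 on tumor replicate 2.

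In resting Treg cells every member gave a clear signal. Across the 6 naive arrays the lowest value of any member was 975 (Gimap7, 1444283_at) and the highest 40962 (Gimap4, 1424375_s_at), but probe sets differ in how strongly they bind, so these do not rank the genes. Replicates 4 to 6 did not differ from replicates 1 to 3 past the threshold for any member (0 of 11 probe sets lower and 0 higher in limma's test with Benjamini-Hochberg adjustment under 0.05, and 0 at an unadjusted p under 0.05, against 2.95% lower and 4.11% higher of all 22143 probe sets). The one member without overlap between the naive sets was Gimap4 on 1424375_s_at, at 36810, 37915 and 40962 on replicates 1 to 3 and 30010, 23452 and 21918 on replicates 4 to 6 (log2 difference -0.63 ± 0.32 SE, adjusted p = 0.25). Changes here are differences of log2(signal + 32), a scale that understates the change of dim probe sets. Within a group the naive arrays spread little, with a highest to lowest ratio from 1.11 for Gimap5 to 1.55 for Gimap6 (1456762_at) over replicates 1 to 3, and up to 2.33 for the latter over replicates 4 to 6.

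**Figure D1:**
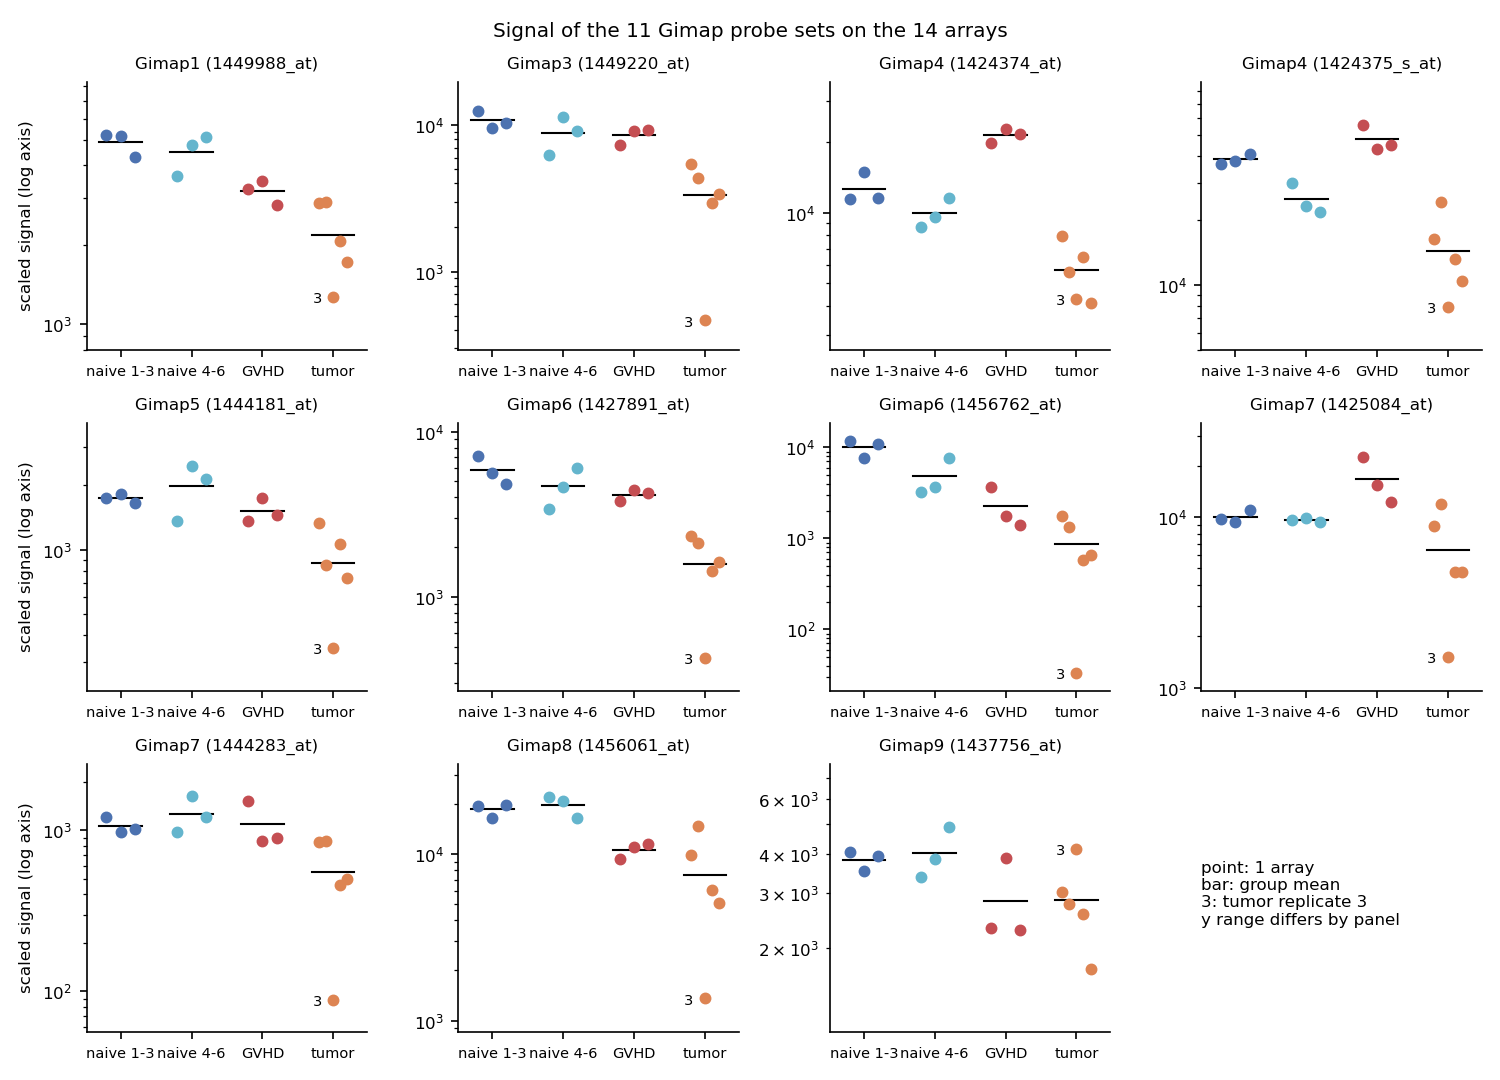
Scaled signal (log axis, arbitrary intensity units) of the 11 Gimap probe sets in the 4 groups; each point is 1 array, each bar a group mean, and 3 marks tumor replicate 3. By group mean, tumor arrays lie lowest for all probe sets but Gimap9, GVHD arrays lie highest for Gimap4 and Gimap7 (1425084_at), and tumor replicate 3 falls to 33.3 on Gimap6 (1456762_at) while it is the highest tumor array, at 4156, on Gimap9.

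Samples labelled tumor-activated had less signal for most of the family. Of the 11 probe sets, 9 fell and 0 rose against naive replicates 4 to 6 (limma, adjusted p under 0.05), where 16.4% of all probe sets fell and 14.1% rose. The 9 read 7 of the 8 genes: Gimap1, Gimap3, Gimap4, Gimap5, Gimap6, Gimap8 and, on 1 of its probe sets, Gimap7. The median change of the 11 was -1.25 on the log2 scale, against -0.12 over all probe sets. In these sorted but mixed-marker samples, fewer cells of a type and less RNA per cell cannot be told apart.

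Among the members tied to T cell survival, Gimap5, a lysosomal GTPase, read 1369, 2449 and 2148 on naive replicates 4 to 6 and 1331, 845, 350, 1060 and 742 on the tumor arrays. The groups did not overlap, though naive replicate 4 and tumor replicate 1 were close, and the change was -1.25 ± 0.34 SE (2.38-fold lower, adjusted p = 0.012). Gimap1, needed for the upkeep of mature lymphocytes, read 3636, 4764 and 5122 against 2887, 2909, 1273, 2071 and 1722. All tumor arrays lay below all naive ones (-1.09 ± 0.27 SE, 2.13-fold lower, adjusted p = 0.0071). Gimap3, the close relative of Gimap5 on membranes of the endoplasmic reticulum, read 6248, 11324 and 9079 against 5448, 4316, 464, 2934 and 3393. It fell 3.32-fold (-1.73 ± 0.54 SE, adjusted p = 0.024), with replicate 3 far under the other tumor arrays, and 2.20-fold without that array (adjusted p = 0.0016).

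Gimap4, which has been linked to the pace of T cell death, fell on both of its probe sets. On 1424374_at it read 8708, 9569 and 11616 on the naive arrays and 7958, 5574, 4268, 6434 and 4117 on the tumor arrays, without overlap (-0.84 ± 0.24 SE, 1.79-fold, adjusted p = 0.015). On 1424375_s_at, whose suffix marks probes shared by several transcripts, it read 30010, 23452 and 21918 against 16393, 24282, 7924, 13224 and 10411. Tumor replicate 2 lay within the naive range there, and the change was -0.89 ± 0.29 SE (1.85-fold, adjusted p = 0.029).

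Gimap6, the autophagy-linked member, had the largest fall of the family on 1 of its probe sets. On 1427891_at it read 3391, 4638 and 6035 on naive arrays and 2327, 2115, 428, 1424 and 1623 on tumor arrays (-1.70 ± 0.41 SE, 3.25-fold, adjusted p = 0.0058). On 1456762_at it read 3258, 3666 and 7594 against 1759, 1334, 33.3, 578 and 649 (-2.96 ± 0.75 SE, 7.79-fold, adjusted p = 0.0079). Neither overlapped, and without tumor replicate 3 the second fall was 4.51-fold (-2.17 ± 0.40 SE, adjusted p = 0.00065).

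Gimap8, the longest of the family with several GTPase domains in a row, read 21921, 20815 and 16546 on naive arrays and 9885, 14816, 1358, 6074 and 5120 on tumor arrays. The groups were separate, and the fall was 3.40-fold (-1.77 ± 0.50 SE, adjusted p = 0.016). The probe sets of Gimap7 differed in their call. On 1444283_at it read 975, 1623 and 1213 against 845, 861, 89.1, 457 and 496 and fell 2.68-fold (-1.42 ± 0.49 SE, adjusted p = 0.038). On 1425084_at it read 9679, 9933 and 9355 against 8906, 12034, 1518, 4778 and 4786, with replicate 2 above every naive array, and the change of -0.89 ± 0.46 SE did not pass (95% interval -1.87 to 0.08, adjusted p = 0.15).

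Gimap9, which has no settled role, was the member that moved least. It read 3380, 3845 and 4886 on the naive arrays and 3014, 2754, 4156, 2566 and 1706 on the tumor arrays. Replicate 3 lay inside the naive range and the other tumor arrays below it, and the change of -0.54 ± 0.28 SE did not pass (95% interval -1.14 to 0.05, adjusted p = 0.15). Without replicate 3 it was -0.69 ± 0.23 SE and passed (1.62-fold lower, adjusted p = 0.029).

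Tumor replicate 3 was the lowest of the tumor arrays for 9 of the 11 Gimap probe sets, as it was for 49.0% of all probe sets and for 15 of 16 T cell genes. Against the mean of the other tumor arrays it was 7.95-fold lower for Gimap3, 5.94-fold for Gimap8 and 1.37-fold for Gimap4 (1424374_at). For Gimap6 (1456762_at) and Gimap7 (1444283_at) it read 33.3 and 89.1, below the 100 that the filter asks for, against means of 1080 and 665, and no fold is given. For Gimap9 it was the highest, which held for 22.8% of all probe sets. Its median over the Gimap probe sets differed by -2.02 on the log2 scale from the others' mean, while the T cell genes averaged -2.75 and all probe sets had a median of -0.38. Without this array 10 of the 11 Gimap probe sets were lower in the tumor samples and 0 higher, against 17.1% and 16.2% of all probe sets, with a median change of -0.93. The count also rested on the controls: it was 3 without naive replicate 5, 5 without naive replicate 6 and 6 without naive replicate 4. Over all 22143 probe sets the lower calls also dropped, from 3639 to 1734, 2280 and 2552 in these fits. The Gimap count was 3 when the 8 arrays of this comparison were fitted alone, where 10.3% of all probe sets fell and 10.8% rose. Gimap1 and both probe sets of Gimap6 passed in that fit (adjusted p = 0.039, 0.033 and 0.036), and the same 3 passed whichever single array was left out. Gimap5 lost its call without naive replicate 5, Gimap3 and Gimap4 (1424374_at) without naive replicate 5 or 6, and Gimap8 without naive replicate 4 or 5. Gimap4 (1424375_s_at) and Gimap7 (1444283_at) lost theirs when any of these 3 naive arrays or tumor replicate 5 was left out, the latter also without tumor replicate 4, while Gimap7 (1425084_at) passed without tumor replicate 2.

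**Figure D2:**
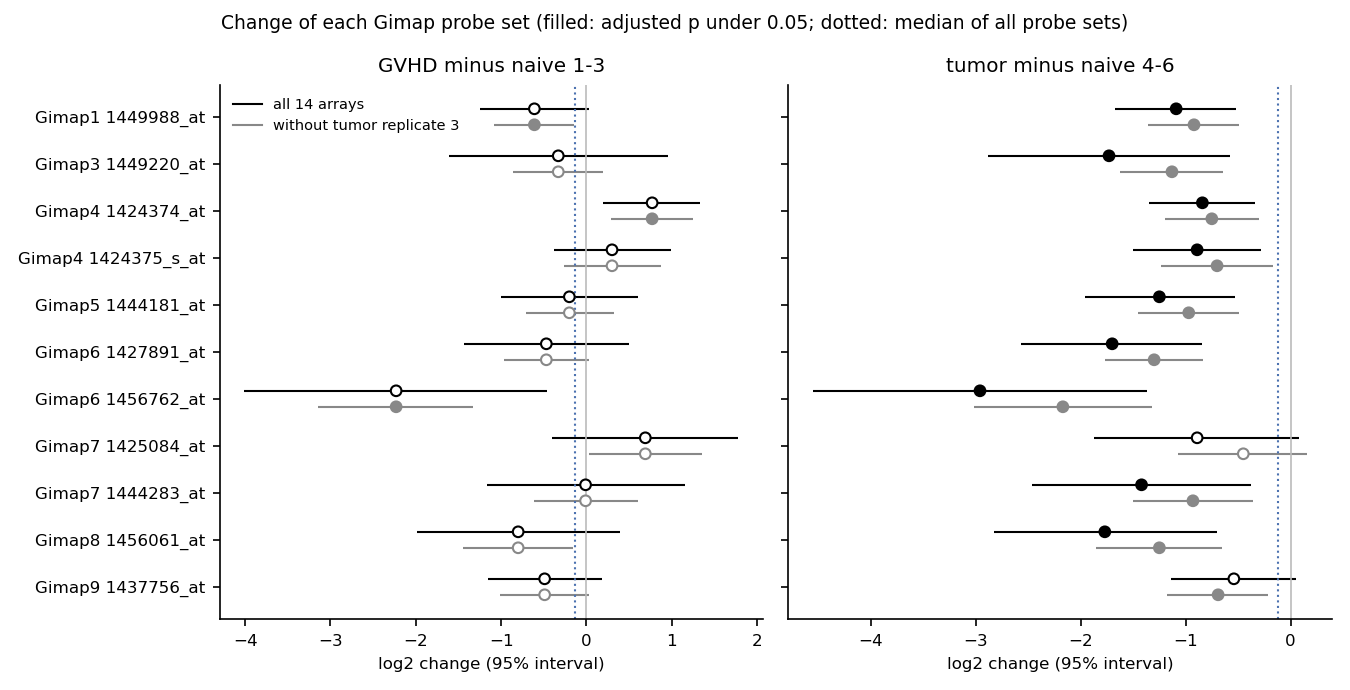
Log2 change with its 95% interval for each Gimap probe set, in GVHD samples against naive replicates 1 to 3 (left) and tumor samples against naive replicates 4 to 6 (right), fitted on all 14 arrays (black) and without tumor replicate 3 (grey). Filled points passed an adjusted p of 0.05 and the dotted line is the median of all probe sets, -0.13 on the left and -0.12 on the right; all 11 tumor changes are below 0 and the GVHD changes lie on both sides.

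T cell receptor and lineage genes were lower on the same arrays. Of these 16 genes, 11 fell and 0 rose, with a median change of -1.90 (13 and -1.24 without replicate 3). Of all probe sets 16.4% fell and 14.1% rose (17.1% and 16.2% without replicate 3). Averaged over the family, the log2 Gimap signal minus the log2 T cell list signal was -0.13, 0.48 and 0.85 on naive replicates 4 to 6 and 0.70, 0.24, 1.67, 0.96 and 0.71 on the tumor arrays, and these groups overlapped. When each array was also centred on the mean of the T cell list, 0 of 11 probe sets were lower and 0 higher in limma's test. In that fit 0.226% of all probe sets were lower and 60.8% higher. At an unadjusted p under 0.05 there were 2 of the 11. Of the 11 changes 10 turned positive, with a median of 0.58. Over all probe sets that centring moved the median to 1.71, so the members lay below it. Gimap6 on 1456762_at was the exception that stayed negative, at -1.13. Tumor replicate 3, with the lowest Gimap mean, had the lowest T cell sum and the highest macrophage and mast cell sums given above, and their part in the result was not tested.

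**Figure D3:**
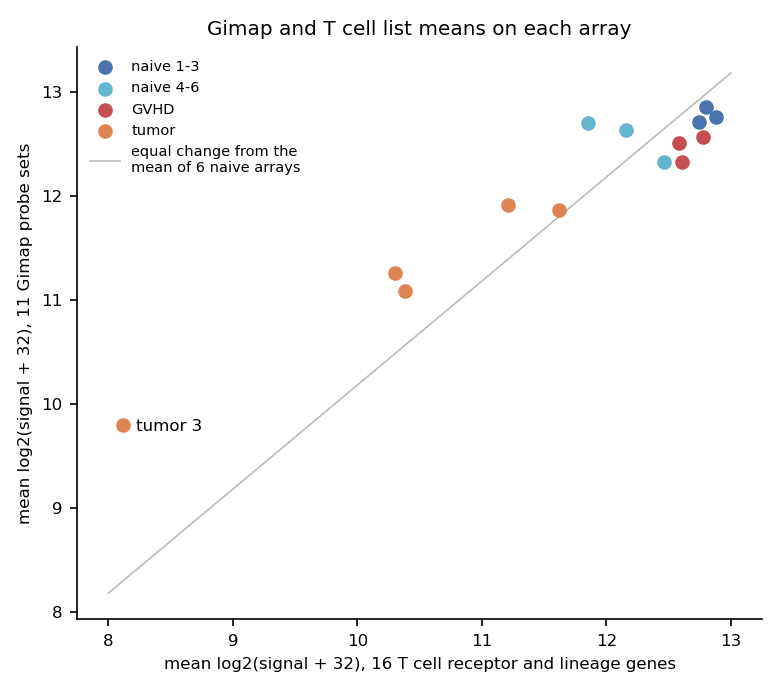
Mean log2(signal + 32) of the 11 Gimap probe sets (vertical) against that of the 16 T cell receptor and lineage genes (horizontal), 1 point per array, with a grey line of equal change from the mean of the 6 naive arrays. Tumor replicate 3 has the lowest of both, 9.80 and 8.12, and all 5 tumor arrays lie above the line, as do naive replicates 5 and 6.

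In GVHD samples no member passed the test with all arrays. In that fit of 14 arrays, 0 of 11 Gimap probe sets passed in either direction against naive replicates 1 to 3 (2 at an unadjusted p under 0.05), where 11.9% of all probe sets fell and 8.69% rose. Of the 11 changes 8 were below 0, with a median of -0.33 against -0.13 over all probe sets. For 5 of the 11 the GVHD arrays lay wholly below their controls, as for 27.8% of all probe sets, and for 3 wholly above, as for 18.8%. Together these are 8 of 11, where 46.5% of all probe sets did not overlap. The spread in this fit is shared by all groups, tumor replicate 3 included. Without that array 2 probe sets fell (Gimap1 and Gimap6 on 1456762_at) and 1 rose (Gimap4 on 1424374_at), against 19.9% and 13.1% of all probe sets, so these counts lie near the background. With the 6 arrays of this comparison alone, 4 fell (adding Gimap6 on 1427891_at and Gimap8) and 2 rose (adding Gimap7 on 1425084_at), against 20.1% and 14.4%.

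Gimap4 stood highest in GVHD. On 1424374_at it read 11492, 14873 and 11605 on naive replicates 1 to 3 and 19880, 22794 and 21664 on the GVHD arrays. Every GVHD array lay above all 11 others, and the change was 0.77 ± 0.27 SE (1.70-fold; adjusted p = 0.053 with all arrays, 0.016 without tumor replicate 3), and it also passed without tumor replicate 1 or 2. On 1424375_s_at it read 36810, 37915 and 40962 against 55479, 43181 and 44688, also without overlap, but the change of 0.30 ± 0.32 SE did not pass (adjusted p = 0.56). Against naive replicates 4 to 6 both probe sets rose, by 1.11 ± 0.27 SE and 0.93 ± 0.32 SE (2.16-fold and 1.91-fold, adjusted p = 0.0054 and 0.038).

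Gimap7 on 1425084_at read 9705, 9364 and 11086 on the naive arrays and 22502, 15387 and 12247 on the GVHD arrays, without overlap but with a wide spread (0.69, 95% interval -0.40 to 1.78, adjusted p = 0.38). Its other probe set did not follow: 1444283_at read 1211, 975 and 1013 against 1525, 852 and 896 (-0.01, adjusted p = 0.99).

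Gimap6 on 1456762_at showed the widest gap, with 11718, 7584 and 11004 on the naive arrays and 3674, 1774 and 1388 on the GVHD arrays (-2.23, 4.70-fold lower; adjusted p = 0.071 with all arrays and 0.00081 without tumor replicate 3). On 1427891_at the gap was small, with 7105, 5609 and 4792 against 3812, 4420 and 4237 (-0.47, adjusted p = 0.51). Both were without overlap against these controls. Naive replicates 4 to 6 read 3258, 3666 and 7594 on 1456762_at, so GVHD replicate 1 overlapped them, and against them the change was -1.10 (adjusted p = 0.34).

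Gimap8 read 19472, 16506 and 19857 on the naive arrays and 9419, 11024 and 11526 on the GVHD arrays. All GVHD values lay below all 6 naive ones, at -0.80 ± 0.56 SE (1.74-fold; adjusted p = 0.35 with all arrays, 0.053 without tumor replicate 3 and 0.0021 with the 6 arrays alone). Gimap1 read 5189, 5175 and 4280 against 3245, 3494 and 2818, again below every naive array (-0.61, 1.53-fold; adjusted p = 0.17, 0.042 and 0.009 in the same fits). Gimap3 read 12371, 9540 and 10304 against 7282, 9098 and 9231, which left a narrow gap (-0.33, adjusted p = 0.75).

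The remaining members overlapped between the groups. Gimap5 read 1745, 1822 and 1645 on the naive arrays and 1359, 1748 and 1453 on the GVHD arrays (-0.20, adjusted p = 0.77). Gimap9 read 4050, 3517 and 3940 against 2303, 3869 and 2270, with GVHD replicate 2 inside the naive range (-0.49, adjusted p = 0.3). Of the T cell list 0 of 16 fell and 0 rose in GVHD with all arrays, at a median of -0.18. Of all probe sets 11.9% fell and 8.69% rose there. Without tumor replicate 3, 3 of the 16 fell and 1 rose, not above the 19.9% and 13.1% of all probe sets.

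**Figure D4:**
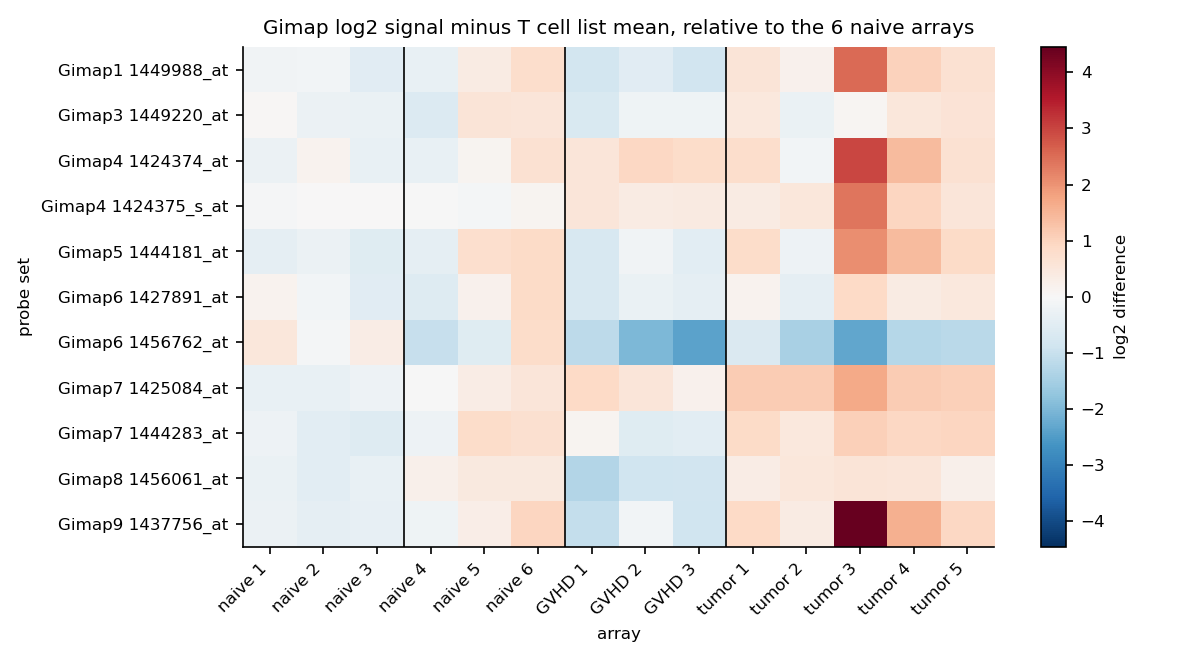
Colour gives the log2 signal of each Gimap probe set minus the mean of the T cell list on that array, relative to the mean of the 6 naive arrays, for the 14 arrays in 4 groups. GVHD arrays are red for Gimap4 and blue for Gimap1 and Gimap8, tumor replicate 3 is darkest red for Gimap9, and Gimap6 on 1456762_at is blue on all GVHD and tumor arrays.

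The difference between the changes was tested directly. Gimap4 on 1424374_at had a tumor change lower than its GVHD change, at -1.61 on the log2 scale (SE 0.36, 3.06-fold, adjusted p = 0.0099), and it was the 1 member of 11 called, with 0 higher, where 2.51% of all probe sets were lower and 5.56% higher. Its change was 0.77 in GVHD and -0.84 in tumor samples. For 1424375_s_at the difference was -1.19 (95% interval -2.11 to -0.27, adjusted p = 0.12), and for Gimap7 on 1425084_at -1.58 (-3.04 to -0.12, adjusted p = 0.2). All 11 differences were below 0, and the nearest to 0 was Gimap9 at -0.06 (-0.95 to 0.83). Centred on the T cell list, the difference for Gimap4 on 1424374_at was 0.07. That centring moved the median difference over all probe sets from -0.03 to 1.65, so this probe set still lay below it.

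Order of the groups differed between members. By mean, Gimap1, Gimap3, both probe sets of Gimap6 and, with the naive sets exchanged, Gimap5 and Gimap8 ran from tumor through GVHD to naive. Gimap4 on both and Gimap7 on 1425084_at ran from tumor through naive to GVHD. Tumor and GVHD arrays, neighbours in the first order, overlapped for Gimap1, Gimap8 and Gimap6 on 1456762_at and were separate for Gimap3, Gimap5 and Gimap6 on 1427891_at. For Gimap9 no neighbours in the order were separate. Gimap7 on 1444283_at ran from tumor through naive replicates 1 to 3 and GVHD to naive replicates 4 to 6. Its tumor arrays were separate from both naive sets but not from the GVHD arrays, where replicate 2 read 852 against 861 on tumor replicate 2.

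The 2 probe sets of Gimap6 did not keep 1 ratio. The signal of 1427891_at over that of 1456762_at ran from 0.436 to 0.740 on naive replicates 1 to 3 and from 0.795 to 1.27 on naive replicates 4 to 6. It then reached 1.04 to 3.05 on the GVHD arrays and 1.32 to 12.9 on the tumor arrays. The top value comes from replicate 3, where 1456762_at read 33.3, and without it the highest tumor ratio was 2.5, under the highest GVHD ratio. For Gimap4 and Gimap7 the ratios moved less, from 0.230 to 0.539 and from 6.12 to 18.1 over all 14 arrays. The sources used here do not give which Gimap6 transcripts each probe set reads.

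As a description over the 14 arrays, profiles were compared after centring each on its own mean log2 signal, by the root mean square difference. Between members the closest pair was Gimap1 and Gimap5, at 0.276, followed by Gimap3 and Gimap6 (1427891_at) at 0.287. Farthest from the family's mean profile were Gimap6 on 1456762_at (1.171) and Gimap9 (0.824), and the nearest was Gimap6 on 1427891_at (0.253). Of 12204 other genes, those nearest the family profile were Ppm1m, Mmd, Cyld, Il10ra, Kat2b, Gba2, Mphosph9 and Psd4, at 0.161 to 0.230, where the median gene was at 0.954. Cyld is a deubiquitinase that restrains NF-kappaB, and Il10ra is the ligand-binding chain of the interleukin-10 receptor. The arrays share the drop on tumor replicate 3, which weighs on every such value: Ppm1m, for one, read 788 there against 2063 to 3738 on the other tumor arrays.

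Of the 6 protein-coding genes on either side of the cluster, in the order of GRCm38.p6, 6 of the 12 were tested. In tumor samples 3 rose and 1 fell, and in GVHD samples 1 fell, beside the shares of all probe sets given above. In tumor samples Tmem176b and Tmem176a, the next genes beyond Gimap3, which code for membrane proteins of antigen-presenting cells, rose 2.60-fold and 3.89-fold (adjusted p = 0.024 and 0.0034), and Repin1 rose 3.42-fold (adjusted p = 0.012). Tmem176b was highest on tumor replicate 3, at 1946 against a group mean of 857. Lrrc61 fell in both comparisons, 2.58-fold in GVHD and 2.63-fold in tumor samples (adjusted p = 0.0089 and 0.0031). Zfp775, next to Gimap8, and Atp6v0e2 changed by -0.38 and -0.23 in tumor samples and did not pass (adjusted p = 0.51 and 0.7).

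Partners in survival and autophagy (18 genes, of which 17 were tested) were called about as often as all probe sets with all arrays in the fit. In GVHD samples 3 fell and 0 rose (11.9% and 8.69% of all probe sets), with a median of -0.44 against -0.13 over all probe sets. Without tumor replicate 3, 8 of the 17 fell and 0 rose, where 19.9% of all probe sets fell and 13.1% rose. In that fit a larger share of the partners fell than of all probe sets. Bcl2, founder of the survival protein family that GIMAP proteins have been found to bind, read 6075, 6552 and 5644 on the naive arrays and 295, 199 and 326 on the GVHD arrays. This was a 20.3-fold fall (-4.35 ± 0.40 SE, adjusted p = 1.1e-06), far outside the spread of either group, while Gimap5 itself did not pass. Foxo3, a transcription factor that drives death and quiescence genes, fell 3.22-fold (adjusted p = 0.0053), and Mcl1, another survival protein, 2.33-fold (adjusted p = 0.038).

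In tumor samples 3 of the 17 fell and 3 rose (16.4% and 14.1% of all probe sets), with a median of -0.21. Foxo1, which drives naive T cell genes, fell 4.22-fold (adjusted p = 0.0045), and Il7r, the receptor of the survival cytokine interleukin-7, fell 3.54-fold (adjusted p = 0.005). Gabarapl1, of the family of autophagy proteins to which the partner of Gimap6 belongs, rose 3.51-fold (adjusted p = 0.011), highest on replicate 3 at 5433 against 722 to 3577 on the other tumor arrays. Gabarapl2 of that family had means of 1156 on naive replicates 4 to 6 and 1600 on the tumor arrays. On tumor replicate 3 it read 3200, against 1106 to 1315 on the other tumor arrays. For Gabarap the means were 3377 and 4349. Map1lc3a of the same machinery rose 2.17-fold against naive replicates 4 to 6 (adjusted p = 0.003). Its mean was 2078 on the tumor arrays and 917 on those controls, but 2097 on naive replicates 1 to 3, so the tumor mean did not exceed the other naive set. Bcl2 read 7627, 11290 and 11197 on naive replicates 4 to 6 and 7092, 4849, 2297, 9084 and 7301 on the tumor arrays and did not pass. Between naive sets 2 of the 17 were lower in replicates 4 to 6, Gabarap and Map1lc3a, where 2.95% of all probe sets were lower. The Bcl2 changes differed by 3.52 ± 0.53 SE (adjusted p = 0.00068).

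Genes of naive and lymphoid-homing T cells (15, of which 13 were tested) were read beside the family, since Gimap genes are also high in resting T cells. In GVHD samples 4 fell and 1 rose with all arrays, at a median of -1.01, where 11.9% of all probe sets fell and 8.69% rose. Without tumor replicate 3, 8 fell and 1 rose, against 19.9% and 13.1%. With all arrays Evl, an actin regulator, fell 27.5-fold, Ccr7, the lymph node homing receptor, 15.8-fold, and Foxp1, a factor of quiescent T cells, 14.9-fold (adjusted p = 1.3e-08, 4.2e-07 and 0.00032). Igfbp4 changed by -3.46 there (adjusted p = 4.9e-05). In tumor samples 11 fell and 1 rose, at a median of -2.08 (11, 1 and -1.38 without replicate 3). Of all probe sets 16.4% fell and 14.1% rose there (17.1% and 16.2% without replicate 3). The falls were led by Evl at 12.6-fold and Ccr7 and Lef1 at 5.93-fold each. Igfbp4 rose 5.37-fold there. Centred on the T cell list, 1 of the 13 was lower and 1 higher in tumor samples, where 0.226% of all probe sets were lower and 60.8% higher. The median of the 13 was then -0.25, against 1.71 over all probe sets.

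Interferon-inducible GTPases (18, of which 11 were tested), a distinct group of immune GTPases that defend against intracellular microbes, had a median change of 1.16 in GVHD, where that of the Gimap probe sets was -0.33. There 7 rose and 1 fell, where 8.69% of all probe sets rose and 11.9% fell. Among them were Iigp1 (5.33-fold higher, adjusted p = 0.0016), Gbp3 (3.23-fold, adjusted p = 0.0033) and Gbp7 (3.01-fold, adjusted p = 0.009), while Gbp8 fell 2.59-fold (adjusted p = 0.0061). In tumor samples 2 of the 11 rose and 1 fell, near the 14.1% and 16.4% of all probe sets. These were Irgm1 and Gbp2, 2.41-fold and 2.15-fold higher (adjusted p = 0.0026 and 0.049), and Gbp8, 3.67-fold lower (adjusted p = 0.00018). Without replicate 3 Gbp2 no longer passed.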

How the data were processed

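RNA of 14 samples was extracted with Trizol and labelled with biotin, per the labels' protocols, and hybridised to 1-colour Affymetrix arrays with 45101 probe sets. The deposited values are intensities on a linear scale that the authors computed with MAS5, per the submitters' processing notes (version not given in the sources used here). All arrays were brought to a 2% trimmed mean of 500, which matters for GVHD samples, deposited at 1500. Probe sets with 1 gene symbol in the platform annotation and a scaled signal of at least 100 on at least 3 arrays were kept, 64 control probe sets aside, which left 22143 for 12212 genes. The tests used limma 3.58.1 in R 4.3.3 (lmFit, eBayes with a trend) on log2(scaled signal + 32), with 1 mean per group (4 groups, all 14 arrays) and Benjamini-Hochberg adjustment over all 22143. Every adjusted p is limma's, and rose or fell is written where it was under 0.05. The number of arrays limits the precision.

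Named are all Gimap probe sets, the largest called changes of each list, the 6 protein-coding neighbours on each side and the 8 genes of nearest profile. Each listed gene was read by its brightest probe set (mean log2 signal). The members and lists were chosen with earlier results of these data known. Alternatives were other offsets, no filter, quantile normalization, the deposited scale, centring on the T cell list, other controls, array weights, 1 probe set per gene, a replicate block and leaving out arrays. The limma step was tested on simulated data. Of the marker lists for B cells, CD8 T and NK cells, Treg cells and erythroid cells, 7 of 9, 3 of 6, 4 of 11 and 0 of 2 fell in tumor samples, and 0, 1, 1 and 1 rose. In GVHD samples 0 of 9, 1 of 6, 4 of 11 and 0 of 2 fell, and 1 Treg marker rose (4 without tumor replicate 3). Of all probe sets 16.4% fell and 14.1% rose in tumor samples. In GVHD samples these shares were 11.9% and 8.69% (19.9% and 13.1% without tumor replicate 3).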

Additional observations from a re-analysis of the deposited data

Results flagged for a closer look

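The change of Gimap4 on 1424374_at differed between the tumor and the GVHD comparison, by a test of the difference itself: tumor change minus GVHD change was -1.61 on the log2 scale (SE 0.36, limma adjusted p = 0.0099). The value was 0.07 when arrays were centred on the T cell list, where the median over all probe sets was 1.65 (-0.03 without that centring). Each change has its own controls, and the GVHD arrays were deposited at another scale than the rest. Gimap3 on tumor replicate 3 stood apart from the other tumor arrays by a gap test on 5 arrays: at 8.95 on the log2(signal + 32) scale, its gap to the next array was 0.744 of the group's range, where 0.71 is the critical value. The other 10 Gimap probe sets had no such array on that scale, and none of the 11 had one on the linear signal, where a low array leaves a smaller gap. Chance gives about 1 such case in 20 groups.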

How the results depend on the processing

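With all 14 arrays, 9 Gimap probe sets were lower in tumor samples, 0 lower and 0 higher in GVHD samples, 1 had a lower tumor than GVHD change, and 0 differed between the naive sets. The shares of all probe sets in that fit are given above. Leaving out 1 array gave 3 to 10 lower in tumor samples, 0 to 2 lower and 0 to 1 higher in GVHD samples, and 1 to 2 for the difference. Over all 22143 probe sets these counts ran from 1734 to 4073, 1629 to 4409, 1321 to 2891 and 320 to 1067. Fits of only the arrays compared gave 3 in tumor samples, 4 lower and 2 higher in GVHD samples and 1 lower between naive sets. The matching shares of all probe sets were 10.3%, 20.1%, 14.4% and 7.70%. Array weights gave 2 lower and 1 higher in GVHD samples, 7 for the difference and 2 lower between naive sets. The matching counts over all 22143 probe sets were 4726, 3170, 2362 and 4575. Without tumor replicate 3 and naive replicate 6 together the GVHD counts were 2 and 1, with 1 lower between naive sets. Of all probe sets 19.6%, 13.1% and 5.06% were so called. Quantile normalization gave 1 lower in GVHD samples and 2 for the difference, where 10.7% and 3.30% of all probe sets were lower. An offset of 64 gave 1 lower in GVHD samples, where 2767 of all 22143 were lower. All 6 naive arrays as controls gave 1 higher in GVHD samples, and the other naive set 2. Of all 22143 probe sets 2741 and 2974 were higher there. With 1 probe set per gene the difference count was 0, where 414 of 12212 were lower.

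At the deposited scale, where GVHD arrays stand 3 times higher, 8 probe sets were higher in GVHD samples and 10 had a lower tumor change. Of all 22143 probe sets, 13653 were higher in GVHD samples and 12675 had a lower tumor change at that scale. The GVHD changes then turned to 0.96 for Gimap1, 1.25 for Gimap3, 1.37 for Gimap5, 1.11 for Gimap6 (1427891_at), 1.54 for Gimap7 (1444283_at), 0.78 for Gimap8 and 1.09 for Gimap9.

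Centred on the T cell list, 0 were lower in tumor samples and 0 for the difference. Of all probe sets 0.226% were lower and 60.8% higher in tumor samples, and 0.0181% and 6.19% for the difference. The median over all probe sets moved to 1.71 and 1.65. The tumor changes turned to 0.74 for Gimap1, 0.10 for Gimap3, 0.99 and 0.94 for Gimap4, 0.58 for Gimap5, 0.13 for Gimap6 (1427891_at), 0.94 and 0.41 for Gimap7, 0.07 for Gimap8 and 1.29 for Gimap9. The differences turned to 0.07 and 0.49 for Gimap4, 0.10 for Gimap7 (1425084_at) and 1.63 for Gimap9. Without this centring the Gimap9 difference ran from -0.21 to 0.19 with 1 array left out. Gimap7 (1444283_at) in GVHD samples, -0.01 with all arrays, turned to 0.14 when centred on the T cell list and to 0.13 after quantile normalization. Uncentred, it ran from -0.27 to 0.14 with 1 array left out. Gimap4 (1424375_s_at) between naive sets turned to 0.02 so centred and 0.32 after quantile normalization. The cause of these turns was not tested.

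The labels name no link between same-numbered arrays of different groups beyond the number. Their deviations from group means correlated between -0.508 (tumor and naive replicate 4) and 0.09 over probe sets. With so few arrays per group these values cannot tell whether such arrays share a batch. With the replicate number as a block 0 were lower in tumor samples and 0 for the difference, where 607 and 227 of all 22143 probe sets were lower.

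Dim probe sets, the 3 arrays of most groups and the mixed marker signal of the tumor arrays limit these comparisons.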
